A study of Homo sapiens with 6 samples.

Results

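The genes described here were the core machinery of macroautophagy and its selective receptors, 38 genes in all, measured in SK-Mel-147 melanoma cells. They were taken as every array probe whose symbol in the platform annotation, brought up to date through its Entrez identifier, was one of the 38 names. All 38 had a probe, 58 probes in total, of 20045 genes with a named probe on the array. The probe filter kept 49 of these probes, for 36 genes, against 11501 genes kept in the whole series. Each of the 36 genes had signal above the negative controls on all 6 arrays. ULK2, a kinase related to ULK1, and NBR1, a receptor for ubiquitin-tagged cargo, had no kept probe. The ULK2 probe was detected on 2 of 6 arrays, and each of the NBR1 probes on at most 1.

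Macroautophagy encloses cytoplasm in a double membrane, the autophagosome, which then fuses with the lysosome. A kinase complex around ULK1 starts the process and activates the class III PI3-kinase, whose lipid PI3P recruits WIPI proteins and the lipid-transfer protein ATG2 to the growing membrane. A ubiquitin-like conjugation system then attaches ATG8 proteins to the membrane, ATG4 proteases process ATG8, and selective receptors such as OPTN or BNIP3L tie cargo, among it damaged mitochondria, to ATG8. In melanoma, autophagy has been described both as a brake on early tumour growth and as a survival route for established tumour cells.

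SK-Mel-147 is an established human melanoma line. The cells were transfected with miR-638, with antagomiR-638, an oligonucleotide made to block that microRNA, or as mock, and RNA was taken at 48 h. Each of these 3 groups had 2 Illumina HumanHT-12 v4 arrays. What the mock cells received is described in several ways: the titles name a mock transfection, the series design a non-targeting control, the study's legend a control antagomiR, and the column headers abbreviate NT. All groups were transfected, so none shows untouched cells, and 1 line was used. The level of mature miR-638 itself was not analysed here.

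The mature miR-638 is shown because it is the molecule added to, or blocked in, these cells. RefSeq places it on GRCh38.p14 at chr19:10718419-10718443, plus strand, inside the interval of the gene DNM2, and 20 of its 25 bases are G or C. Capitals mark the seed, bases 2 to 8, which pairs with target transcripts. No other of the 2370 named mature human miRNAs in the table had this seed.
hsa-miR-638: aGGGAUCGcgggcggguggcggccu

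The intensity values are in array units, background-subtracted and brought to 1 common distribution by the authors, so a shift shared by all transcripts would be hidden. Between 19794 and 20890 probes were detected per array, and arrays correlated at 0.994 to 0.995 within groups and at 0.976 to 0.988 between groups. The labels call the arrays duplicates without naming separate cultures, so the p-values measure only the spread between these arrays, which may be technical, and 2 arrays per group allow only coarse precision. Of 9 melanocyte-lineage markers, SOX10 read 1046 to 1300 units, MITF reached 15.5 to 44.0 and PAX3 3.04 to 21.8, while TYR, TYRP1, PMEL, MLANA and S100B had no kept probe and DCT had no named probe. No fibroblast or endothelial marker was kept, and KRT10 and CD14 were the only kept keratinocyte and leukocyte markers, at 1017 to 1287 and 8.02 to 24.3 units. In such bulk RNA, fewer cells of a kind and less RNA per cell cannot be told apart.

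Fold changes are log2 differences of normalized intensities. An offset of 16 units was added first, which understates the change of dim probes. A gene was called at a limma adjusted p of 0.01 or less, adjusted over all kept probes. Where a gene had several kept probes, the brightest stood for it.

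With antagomiR-638, 4 of the 36 autophagy genes rose relative to mock, DRAM1, BNIP3L, OPTN and WIPI1, and none fell. Among all 11501 genes, 10.6% were called in this comparison, 5.83% as rises and 4.78% as falls. With miR-638, none of the 36 rose or fell relative to mock at this threshold, where 3.06% of all genes were called, 1.93% as rises and 1.13% as falls. Set directly against antagomiR-638 cells, miR-638 cells had lower DRAM1, OPTN, WIPI1 and WIPI2, 4 of 36 genes, and no higher gene. In that comparison 15.8% of all genes were called, 7.55% as rises and 8.28% as falls. The comparisons share arrays, since each group enters 2 of the 3.

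**Figure D1:**
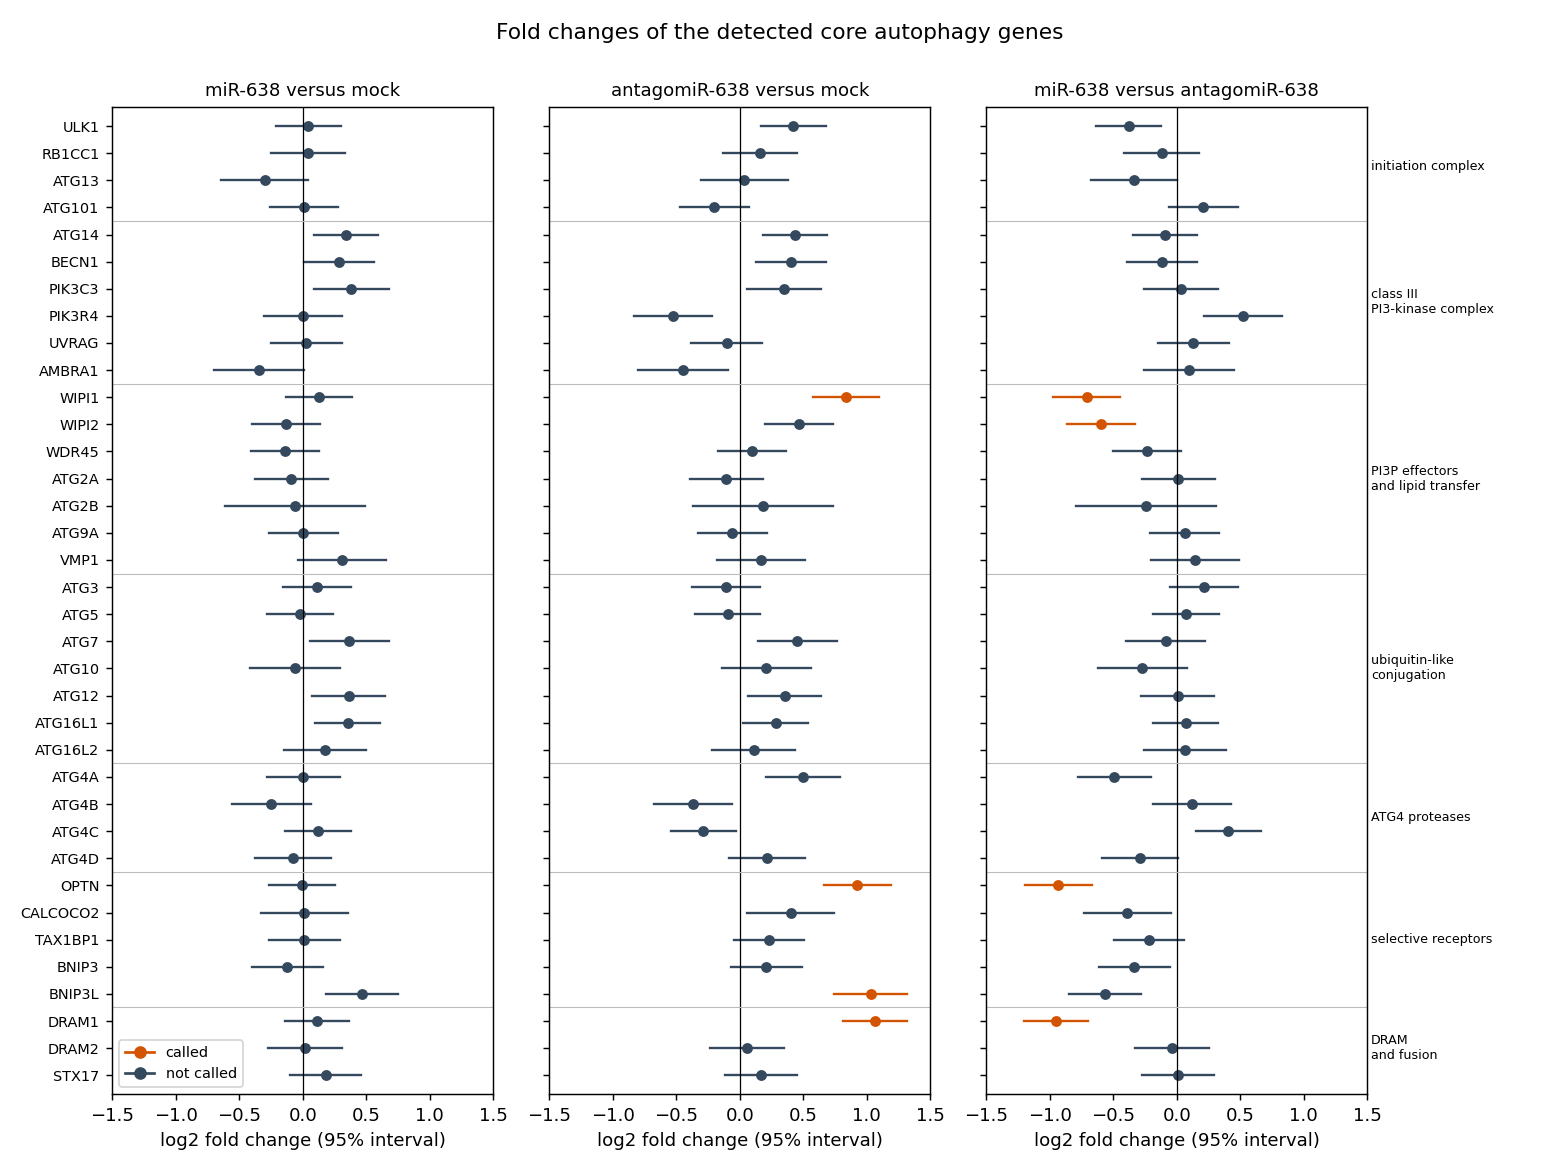
Log2 fold change with its 95% interval for each of the 36 detected autophagy genes, grouped by role, in the 3 comparisons; orange marks calls at an adjusted p of 0.01 or less. Orange points stand at 0.84 to 1.06 for antagomiR-638 versus mock and at -0.95 to -0.60 for miR-638 versus antagomiR-638, and there is none for miR-638 versus mock.

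DRAM1 encodes a lysosomal membrane protein that p53 induces and that promotes autophagy. It lies at chr12:101877580-101923612 on GRCh38.p14, the build of all positions given. DRAM1 read 566 and 605 units in miR-638 cells, 1135 and 1158 in antagomiR-638 cells and 536 and 546 in mock cells. Both antagomiR-638 arrays lay far above the other 4 arrays, which were close to each other. The log2 fold change of antagomiR-638 over mock was 1.06 ± 0.11 (SE, n = 2 arrays each), a 2.09-fold rise (limma adjusted p = 0.000360), and that of miR-638 over antagomiR-638 was -0.95 ± 0.11 (limma adjusted p = 0.000417). For miR-638 over mock it was 0.11, with a 95% interval of -0.14 to 0.36 (limma adjusted p = 0.589). DRAM2, a relative of DRAM1, had 77.9 and 73.4 units in miR-638 cells, 76.0 and 80.4 in antagomiR-638 cells and 66.1 and 83.6 in mock cells, so that the mock arrays spanned all the others. The SNARE STX17, which fuses autophagosomes with lysosomes, was dim, at 13.2 to 21.2 units over the 6 arrays, and did not pass the test in any comparison.

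Among the 5 detected selective receptors, all had both antagomiR-638 arrays above both mock arrays, where this order held for 34.6% of all genes. The median log2 difference of the 5 was 0.40, beside 0.01 over all genes. Of the 5, 2 were called as rises, where 5.83% of all genes were. OPTN, a receptor for ubiquitin-tagged mitochondria and bacteria at chr10:13100082-13138308, read 213 and 223 units in miR-638 cells, 451 and 410.3 in antagomiR-638 cells and 227 and 211 in mock cells. The miR-638 and mock arrays overlapped, and antagomiR-638 arrays stood clear of both. The log2 fold change was 0.93 ± 0.12 for antagomiR-638 over mock (SE, limma adjusted p = 0.000831) and -0.93 ± 0.12 for miR-638 over antagomiR-638 (limma adjusted p = 0.000588). For miR-638 over mock it was -0.01, with an interval of -0.27 to 0.26.

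BNIP3L, also known as NIX, is an outer mitochondrial membrane protein that acts as a receptor for mitophagy. Its brighter probe read 369 and 428 units in miR-638 cells, 598 and 593 in antagomiR-638 cells and 303 and 265 in mock cells. The 3 groups did not overlap, with miR-638 cells between the others. The brighter probe gave a log2 fold change of 1.03 ± 0.13 for antagomiR-638 over mock (SE, limma adjusted p = 0.000760), of 0.47 ± 0.13 for miR-638 over mock (limma adjusted p = 0.0528) and of -0.57 ± 0.13 for miR-638 over antagomiR-638 (limma adjusted p = 0.0111). Only the first passed the threshold, although the third missed it by little. Its other probe read 167 and 182 units in miR-638 cells, 397 and 319.6 in antagomiR-638 cells and 125 and 128 in mock cells. On that probe the order of the groups was the same, and 2 differences passed the threshold: 1.39 ± 0.13 for antagomiR-638 over mock (SE, limma adjusted p = 0.000220) and -0.97 ± 0.13 for miR-638 over antagomiR-638 (limma adjusted p = 0.000954). For miR-638 over mock it gave 0.42 ± 0.13 (SE, limma adjusted p = 0.0803).

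The remaining receptors did not pass the test in any comparison. CALCOCO2, or NDP52, which recognises bacteria and damaged mitochondria, had 28.5 and 34.2 units in miR-638 cells, 54.1 and 38.7 in antagomiR-638 cells and 27.5 and 34.6 in mock cells. TAX1BP1, a related ubiquitin-binding receptor, had 905 and 1006 units in miR-638 cells, 1122 and 1099 in antagomiR-638 cells and 887 and 1008 in mock cells. BNIP3, the mitophagy receptor most similar to BNIP3L, had 1155 and 1195 units in miR-638 cells, 1465 and 1503 in antagomiR-638 cells and 1397 and 1175 in mock cells. In all 3 genes both antagomiR-638 arrays were the brightest, but by small steps. Against mock the log2 differences were 0.40, 0.23 and 0.21 with adjusted p of 0.0929, 0.216 and 0.263 in limma. The other kept probe of TAX1BP1 gave larger differences, also not called. They were 0.42 ± 0.13 for antagomiR-638 over mock and -0.43 ± 0.13 for miR-638 over antagomiR-638 (SE, limma adjusted p = 0.046 and 0.036).

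**Figure D2:**
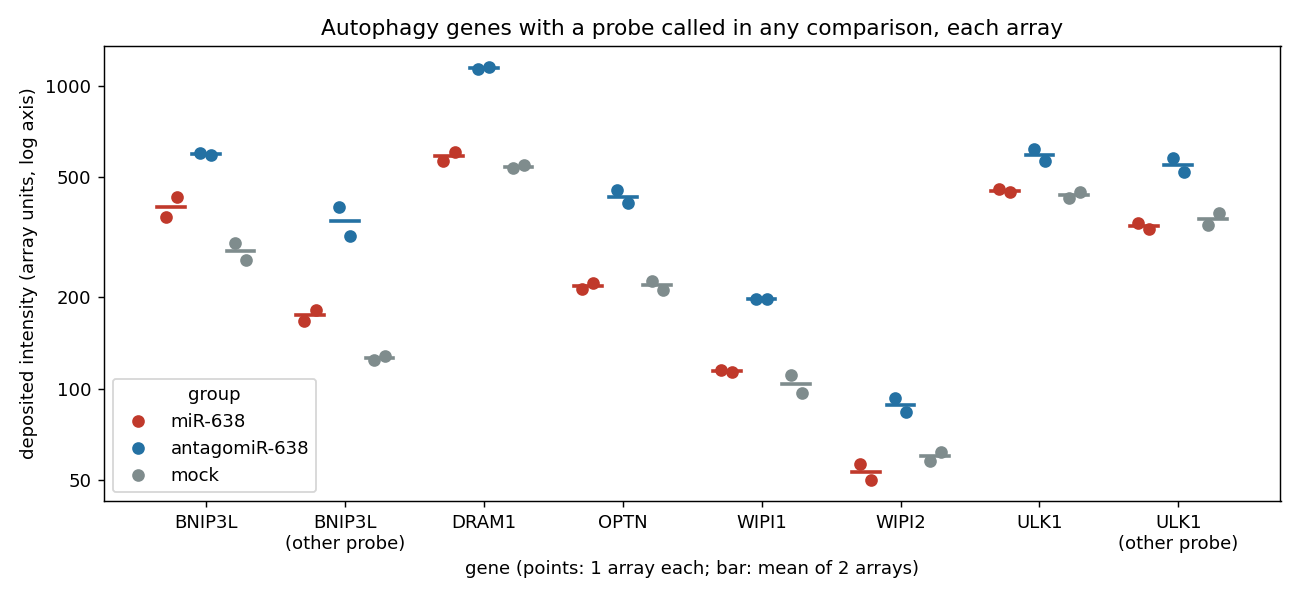
Deposited intensity in array units, on a log axis, of each of the 6 arrays (points) and the mean of each group (bars) for genes with a probe called in any comparison. Both antagomiR-638 arrays of every probe shown lie above the miR-638 and mock arrays, as for DRAM1 with 1135 and 1158 units.

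WIPI1 and WIPI2 are PI3P-binding propeller proteins, and WIPI2 brings ATG16L1 to the forming autophagosome. WIPI1, at chr17:68421281-68457496, read 116 and 114 units in miR-638 cells, 197 and 198 in antagomiR-638 cells and 111 and 96.9 in mock cells. The duplicates of antagomiR-638 were nearly identical and clear of the rest. WIPI1 differed by 0.84 ± 0.12 on the log2 scale between antagomiR-638 and mock (SE, limma adjusted p = 0.00137) and by -0.71 ± 0.12 between miR-638 and antagomiR-638 (limma adjusted p = 0.00238). The miR-638 over mock difference was 0.13 (limma adjusted p = 0.545). WIPI2, at chr7:5190233-5233855, had 56.5 and 49.7 units in miR-638 cells, 92.8 and 84.0 in antagomiR-638 cells and 57.7 and 61.7 in mock cells. Its miR-638 arrays were the lowest and its antagomiR-638 arrays the highest. The log2 difference between miR-638 and antagomiR-638 was -0.60 ± 0.12 (SE, limma adjusted p = 0.00631), while the 0.46 ± 0.12 between antagomiR-638 and mock was not called (limma adjusted p = 0.0243). The third detected propeller, WDR45, read 103 to 137 units over the 6 arrays and was not called.

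ATG2A and ATG2B, which move lipids into the growing membrane, ATG9A, a lipid scramblase of the vesicles that seed it, and VMP1, a scramblase of the endoplasmic reticulum, were not called in any comparison. VMP1 read 1229 to 1776 units over the 6 arrays. ATG2B was dim and spread widely within groups, with 24.5 and 44.9 units in miR-638 cells, 50.3 and 36.2 in antagomiR-638 cells and 25.4 and 48.8 in mock cells. Its standard error of 0.24 on the log2 scale compares with a median of 0.13 over the 36 genes.

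In the initiation complex, none of 4 detected genes was called on its brightest probe. ULK1, the kinase at its centre, lies at chr12:131894622-131923150. Its brighter probe read 455 and 445 units in miR-638 cells, 617 and 563 in antagomiR-638 cells and 426 and 446 in mock cells. Its other probe read 354 and 337 units in miR-638 cells, 579 and 519 in antagomiR-638 cells and 348 and 379.6 in mock cells. On both probes the antagomiR-638 arrays were above the other 4. The other probe gave a called log2 difference of -0.64 ± 0.12 between miR-638 and antagomiR-638 (SE, limma adjusted p = 0.00444), and 0.57 ± 0.12 between antagomiR-638 and mock, just outside the threshold (limma adjusted p = 0.0101). The brighter probe gave -0.38 ± 0.11 and 0.42 ± 0.11 for the same differences (limma adjusted p = 0.0391 and 0.0301). RB1CC1, the scaffold of the complex, and ATG101, which stabilises ATG13, had 390.4 to 495 and 530.1 to 679 units and no call.

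ATG13, the adaptor that links ULK1 to its scaffold, was dim and had one of the 3 lowest log2 differences between miR-638 and mock. It read 17.3 and 25.4 units in miR-638 cells, 27.7 and 34.3 in antagomiR-638 cells and 25.9 and 33.9 in mock cells. The difference of -0.30 ± 0.15 (SE, limma adjusted p = 0.25) was not called, although the miR-638 arrays lay below both mock arrays.

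The class III PI3-kinase complex held the 2 lowest of all 36 differences between antagomiR-638 and mock. PIK3R4, the regulatory subunit also called p150, had 82.0 and 108 units in miR-638 cells, 60.7 and 60.6 in antagomiR-638 cells and 90.6 and 97.8 in mock cells. Both antagomiR-638 arrays were the lowest, by a log2 difference of -0.52 ± 0.14 against mock (SE, limma adjusted p = 0.0254), which was not called. In miR-638 over antagomiR-638 cells PIK3R4 had the highest difference of the 36, 0.52 ± 0.14 (SE, limma adjusted p = 0.0214), again not called. AMBRA1, a BECN1 partner that serves ubiquitin ligases, had 17.8 and 24.1 units in miR-638 cells, 13.7 and 23.8 in antagomiR-638 cells and 30.6 and 31.0 in mock cells. Both groups lay below mock, by -0.35 ± 0.16 with miR-638 and by -0.44 ± 0.16 with antagomiR-638 (SE, limma adjusted p = 0.205 and 0.0763). UVRAG, the subunit of the endosomal form of the complex, had 205 to 245 units and no call.

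The ATG4 proteases did not share a direction. ATG4A had 126 and 146 units in miR-638 cells, 203 and 192 in antagomiR-638 cells and 125 and 146.7 in mock cells, a log2 difference of 0.50 for antagomiR-638 over mock (limma adjusted p = 0.0249). ATG4B, which processes most ATG8 proteins, had 46.2 and 44.5 units in miR-638 cells, 35.4 and 45.9 in antagomiR-638 cells and 62.9 and 51.3 in mock cells. ATG4C had 525 and 486 units in miR-638 cells, 378 and 376 in antagomiR-638 cells and 478 and 449 in mock cells. With antagomiR-638, ATG4A thus stood above mock and ATG4B and ATG4C below it, without a call for any of the 3. For ATG4B the log2 difference from mock was -0.25 with miR-638 and -0.37 with antagomiR-638 (limma adjusted p = 0.294 and 0.0877), and for ATG4C the difference between miR-638 and antagomiR-638 was 0.41 ± 0.11 (SE, limma adjusted p = 0.0292). ATG4D was near the detection limit at 14.9 to 24.8 units.

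None of the 7 conjugation genes was called in any comparison. They are the activating enzyme ATG7, the conjugating enzymes ATG3 and ATG10, the ubiquitin-like ATG12, its partner ATG5, and ATG16L1 and ATG16L2, of which ATG16L1 carries the conjugate to the membrane. ATG3 had 746 and 833 units in miR-638 cells, 656 and 697 in antagomiR-638 cells and 756 and 704 in mock cells. Its log2 difference of 0.22 ± 0.12 between miR-638 and antagomiR-638 cells was the third highest of the 36 and not called (SE, limma adjusted p = 0.220). Between antagomiR-638 and mock the conjugation genes had a median log2 difference of 0.21 and ranged from -0.11 for ATG3 to 0.45 for ATG7. The other kept probe of ATG3, dimmer at 25.8 to 38.1 units, had the opposite sign, at 0.20 (limma adjusted p = 0.284).

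Although no autophagy gene was called for miR-638 against mock, 7 of the 36 had an unadjusted p under 0.05, all of them higher with miR-638 and none lower, where 14.9% of all genes had such a p and were higher and 13.3% lower. The 7 were ATG14, BECN1 and PIK3C3 of the PI3-kinase complex, ATG7, ATG12 and ATG16L1 of the conjugation system, and BNIP3L. PIK3C3, the lipid kinase VPS34 itself, had 350.4 and 364 units in miR-638 cells, 360.1 and 338 in antagomiR-638 cells and 299.9 and 243 in mock cells. ATG7 had 305 and 331 units in miR-638 cells, 359 and 318 in antagomiR-638 cells and 217 and 272 in mock cells. Since these genes were singled out by that p, and antagomiR-638 is set against the same mock arrays, their order against mock is a description only. The log2 differences from mock were 0.38 ± 0.13 for PIK3C3 and 0.37 ± 0.14 for ATG7 with miR-638 (SE, limma adjusted p = 0.102 and 0.134), and 0.35 and 0.45 with antagomiR-638 (limma adjusted p = 0.0879 and 0.0472).

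ATG14, which directs the kinase complex to the endoplasmic reticulum, had 236 and 232 units in miR-638 cells, 260.4 and 241 in antagomiR-638 cells and 184 and 179 in mock cells. BECN1, the scaffold subunit Beclin 1, had 697 and 591 units in miR-638 cells, 693 and 703 in antagomiR-638 cells and 519.5 and 529.5 in mock cells. ATG12 had 885 and 973 units in miR-638 cells, 854 and 998 in antagomiR-638 cells and 748 and 692 in mock cells. In BECN1 and ATG12 the miR-638 and antagomiR-638 arrays overlapped. ATG16L1 had 579 and 571 units in miR-638 cells, 533 and 561 in antagomiR-638 cells and 463 and 431 in mock cells. Between miR-638 and antagomiR-638 the log2 differences of these 6 genes other than BNIP3L lay between -0.12 and 0.07, and none was called.

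Over the 36 genes, the median log2 difference was 0.02 for miR-638 over mock, with a range of -0.35 to 0.47, beside a median of 0.00 over all genes. For antagomiR-638 over mock it was 0.20, with a range of -0.52 to 1.06, beside 0.01 over all genes. Both antagomiR-638 arrays lay above both mock arrays in 21 of 36 genes and below them in 7, beside 34.6% and 31.4% of all genes. For miR-638 over mock the counts were 12 above and 6 below, beside 29.6% and 28.1%, and for miR-638 over antagomiR-638 they were 6 above and 14 below, beside 33.6% and 34% of all genes. In this last comparison the median was -0.09, beside -0.01 over all genes. At a looser adjusted p under 0.05, 10 genes were higher and 1 lower with antagomiR-638 than with mock, beside 12.7% and 10.9% of all genes, and 2 were higher and 7 lower with miR-638 than with antagomiR-638, beside 14.1% and 15.3%. No autophagy gene reached it for miR-638 over mock, beside 6.04% higher and 5.08% lower among all genes. With an unadjusted p under 0.05, 14 were higher and 4 lower in antagomiR-638 than in mock cells, and 2 higher and 9 lower in miR-638 than in antagomiR-638 cells, beside, among all genes, 20.4% higher and 18% lower in the first and 20.5% higher and 21.4% lower in the second. An F test over the 3 groups in limma called 4 of the 36, DRAM1, OPTN, BNIP3L and WIPI1, where 17.2% of all genes were called.

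**Figure D3:**
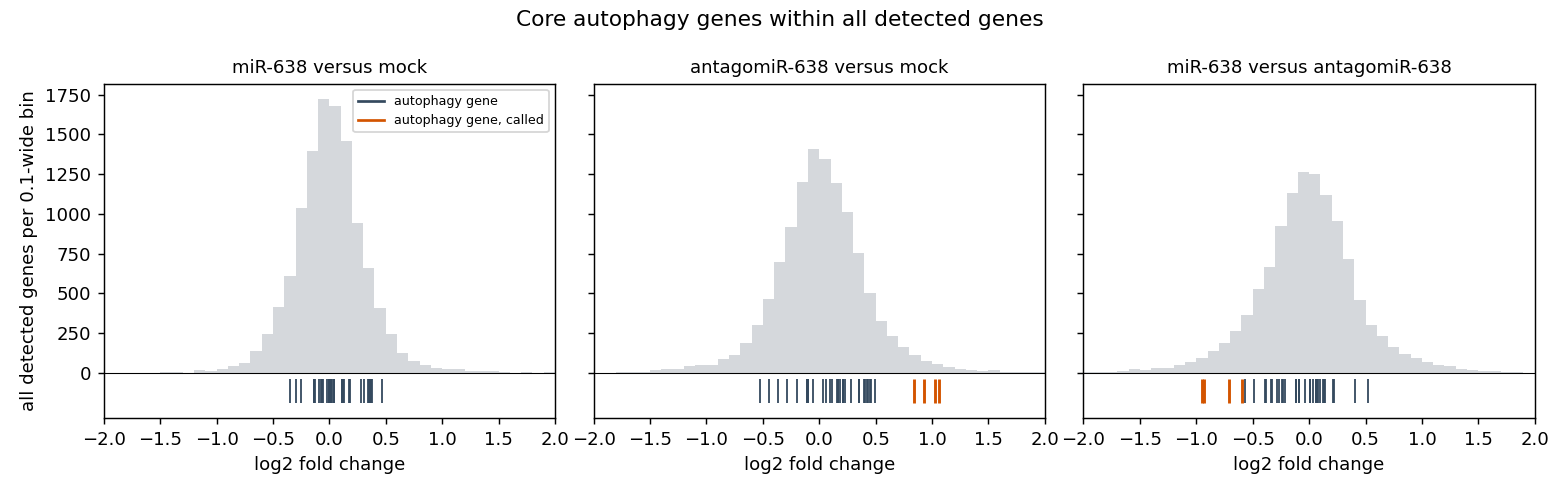
Number of detected genes per 0.1-wide bin of log2 fold change (grey bars) with the 36 autophagy genes as ticks beneath, called ones in orange, in the 3 comparisons; 11, 21 and 38 of the 11501 genes lie outside the plotted range. The antagomiR-638 versus mock ticks reach 1.06 and those of miR-638 versus antagomiR-638 reach -0.95.

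With 1 array left out, log2 differences from mock with antagomiR-638 stayed at 1.05 to 1.07 for DRAM1, 0.86 to 0.99 for OPTN, 0.94 to 1.12 for BNIP3L and 0.75 to 0.92 for WIPI1, while adjusted p crossed the threshold for some genes. DRAM1 was called in both of its comparisons whichever array was left out, with adjusted p of at most 0.00786 in limma. The other calls against mock were lost in some fits: OPTN without antagomiR-638 replicate 1 (limma adjusted p = 0.0158) or mock replicate 2 (0.0102), BNIP3L without antagomiR-638 replicate 1 (0.0142) or replicate 2 (0.0120), and WIPI1 without antagomiR-638 replicate 1 (0.0187), antagomiR-638 replicate 2 (0.0173) or mock replicate 2 (0.0152). The other BNIP3L probe kept its call against mock in each of these fits, with limma adjusted p of at most 0.00566. Between miR-638 and antagomiR-638, WIPI1 lost its call without any 1 of the 4 arrays compared (limma adjusted p = 0.0171, 0.0188, 0.0244 and 0.0229), OPTN without antagomiR-638 replicate 1 (0.0112), and WIPI2 without any 1 of the 6 arrays (0.01002 to 0.0588). The log2 differences in these fits were -0.72 to -0.70 for WIPI1 and -0.67 to -0.53 for WIPI2, and at least 0.87 in size for OPTN. The other probe of ULK1 lost its call without any 1 of the 4 arrays compared (limma adjusted p = 0.0203 to 0.0477), and that of BNIP3L without miR-638 replicate 1 (0.0114) or antagomiR-638 replicate 1 (0.0136). With 1 array left in a group, that array was assumed to vary like the other groups. No gene of the array, these included, was called when each probe kept its own variance without limma's moderation. In that fit 12 autophagy genes for antagomiR-638 over mock and 10 for miR-638 over antagomiR-638 had an unadjusted p under 0.05. The share of all genes at that p was not counted there, so these 2 counts cannot be read as an excess.

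Of the 13 autophagy genes with several kept probes, the probes had the same sign for 6 in miR-638 over mock and for 9 in each of the other comparisons. The gap between them had a median of 0.14 to 0.19 on the log2 scale and was largest for ATG10, at 0.51 in miR-638 over antagomiR-638. The second probe of ATG10 read 9.44 to 24.6 units, near the detection limit. Of the 9 probes that were not kept, 5 were detected on no array, and none exceeded 14 units.

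The sequence before the start of the gene is shown for DRAM1, OPTN and WIPI1. On their brightest probe, these were the genes called both as rises with antagomiR-638 and as lower with miR-638 than with antagomiR-638. BNIP3L met both conditions only on its other probe, and no such sequence was available for it. The windows hold the 250 bases before the most upstream RefSeq start on GRCh38.p14, at chr12:101877330-101877579 (plus strand), chr10:13099832-13100081 (plus strand) and chr17:68457497-68457746 (minus strand). The motifs below were searched on both strands: GGGCGG, the GC box, CACGTG, the E-box that also lies in sites of the TFEB family, and GCCNNNGGC, the core of AP-2 sites. Capitals mark matches, on the opposite strand as CCGCCC.
DRAM1: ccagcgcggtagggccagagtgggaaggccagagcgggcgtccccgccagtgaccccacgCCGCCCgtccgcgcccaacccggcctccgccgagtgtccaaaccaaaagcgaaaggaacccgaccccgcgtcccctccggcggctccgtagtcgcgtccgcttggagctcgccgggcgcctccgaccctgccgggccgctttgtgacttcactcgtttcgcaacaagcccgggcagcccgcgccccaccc
OPTN: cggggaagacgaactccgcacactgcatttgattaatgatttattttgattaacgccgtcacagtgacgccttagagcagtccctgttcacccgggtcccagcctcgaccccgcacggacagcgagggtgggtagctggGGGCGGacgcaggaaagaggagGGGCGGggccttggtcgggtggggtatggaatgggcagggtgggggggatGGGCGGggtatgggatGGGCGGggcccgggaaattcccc
WIPI1: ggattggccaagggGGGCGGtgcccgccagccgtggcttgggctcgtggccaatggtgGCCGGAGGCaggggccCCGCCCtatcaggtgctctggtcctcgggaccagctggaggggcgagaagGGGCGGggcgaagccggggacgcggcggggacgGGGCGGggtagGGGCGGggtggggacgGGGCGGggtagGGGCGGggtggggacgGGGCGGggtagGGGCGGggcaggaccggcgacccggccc

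The DRAM1 window held 1 GC box, that of OPTN 4 and that of WIPI1 9, and at least 1 was present in 42.2% of 27305 gene promoters. Windows with 4 or more GC boxes made up 7.75% of all promoters, and those with 5 or more 4.13%. WIPI1 also held 1 GCCNNNGGC, found in 19.6% of promoters, and none of the 3 held CACGTG, found in 6.46%. Of the 38 autophagy genes 33 had a window, and 21 of these held a GC box, 5 GCCNNNGGC and 3 CACGTG, the last being ATG14, ATG3 and BNIP3. The G and C content was 73.2% for DRAM1, 63.6% for OPTN and 79.6% for WIPI1. A match describes the letters of the window and is neither a binding site nor a cause of a change, and the absence of a match says nothing about the factor.

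Neighbouring parts of the pathway were counted from further lists. Among 9 detected ATG8 proteins and their adaptors, 3 rose with antagomiR-638 against mock (5.83% of all genes), 1 fell with miR-638 against mock (1.13%), and 5 were lower in miR-638 than in antagomiR-638 cells (8.28%). Their median log2 difference was 0.52 for antagomiR-638 over mock and -0.61 for miR-638 over antagomiR-638, beside 0.01 and -0.01 over all genes. SQSTM1, the receptor p62, had 5171 and 4654 units in miR-638 cells, 8216 and 7835 in antagomiR-638 cells and 4683 and 5067 in mock cells, a log2 difference of 0.72 ± 0.12 for antagomiR-638 over mock (SE, limma adjusted p = 0.00336). TP53INP1, a p53 target that binds ATG8 proteins, rose by 1.57 on the log2 scale with antagomiR-638 against mock (limma adjusted p = 0.000119). TP53INP2, an ATG8-binding protein, differed by -1.16 for miR-638 and by 0.95 for antagomiR-638 over mock (limma adjusted p = 0.000691 and 0.000611). It was the 1 gene that fell, and was also among the 3 and the 5 counted above. The study itself picked TP53INP2 on these arrays, so neither its direction nor its place in these counts is independent evidence. GABARAPL1 and MAP1LC3A, both ATG8 proteins, were lower in miR-638 than in antagomiR-638 cells by -0.61 and -0.72 on the log2 scale (limma adjusted p = 0.00847 and 0.00474).

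Of 14 other selective receptors 2 rose with antagomiR-638 against mock, where 5.83% of all genes did, CCPG1 and RETREG1, receptors for parts of the endoplasmic reticulum, by 1.06 and 1.03 on the log2 scale (limma adjusted p = 0.000585 and 0.00112). Both, and TRIM5, a restriction factor that also serves as a receptor for virus, were lower in miR-638 than in antagomiR-638 cells, 3 of 14 where 8.28% of all genes were, and RETREG1 was dim at 10.6 to 47.2 units. The other kept probes of CCPG1 and RETREG1 were not called. The list had median log2 differences of 0.15 for antagomiR-638 over mock and -0.40 for miR-638 over antagomiR-638, beside 0.01 and -0.01 over all genes. Of 11 detected regulators of the PI3-kinase and of ATG9 vesicles, 1 was called, ZFYVE1, a PI3P-binding protein that marks sites of autophagosome formation. Its log2 difference was 0.74 for antagomiR-638 over mock, where 5.83% of all genes rose. For miR-638 over antagomiR-638 it was -0.69, where 8.28% of all genes were lower. The other kept probe of ZFYVE1, at 4.97 to 14.1 units, was not called. Of 13 fusion genes, 1 was called in each comparison with mock, where 1.13% of all genes fell with miR-638 and 5.83% rose with antagomiR-638: RAB7A, the GTPase of late endosomes, fell by 0.89 on the log2 scale with miR-638 (limma adjusted p = 0.00526), and TECPR1, a tethering protein, rose by 0.72 with antagomiR-638 (limma adjusted p = 0.00330). RAB7A and VPS41, a subunit of the HOPS tether, were also lower in miR-638 than in antagomiR-638 cells, by -1.02 and -0.66, 2 of 13 beside 8.28% of all genes. VPS41, like TP53INP2, was among the candidates that the study picked on these arrays, so neither its direction nor its place among the 2 is independent evidence. Another 2 of its 4 kept probes, both dim, were called for antagomiR-638 over mock at 0.83 and 0.72 (limma adjusted p = 0.00246 and 0.00395), where its brightest probe gave 0.43 (0.0239). Of 10 upstream kinase genes 1, PRKAB2, an AMPK subunit, rose by 0.89 with miR-638 against mock (limma adjusted p = 0.00265), where 1.93% of all genes rose, and the dim AMPK subunit PRKAA2 was higher in miR-638 than in antagomiR-638 cells by 0.73 (limma adjusted p = 0.00236), where 7.55% of all genes were.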

How the data were processed

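RNA of SK-Mel-147 cells was hybridised to 6 Illumina HumanHT-12 v4 arrays of 47319 probes, 2 in each of 3 groups. The authors deposited intensity values, background-subtracted (26.2% lie below 0) and, as sorted columns differing by at most 0.349 units show, already quantile-normalized, although the table is named non-normalized; the labels name lumi, with no version. The deposited detection p-value moves in steps of 1 in 770. A second deposited table served as an alternative.

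limma 3.58.1 in R 4.3.3 applied normexp, guided by the detection p-values (offset 16), quantile normalization and log2. Probes with a detection p-value under 0.05 on both arrays of a group were kept (20145, for 11501 genes), and the brightest stood for its gene. Group means were fitted over all 6 arrays (3 residual and 6.31 prior degrees of freedom), two-sided, with Benjamini-Hochberg adjustment over kept probes. The model was tested on simulated data. Of 30112 probes with 1 symbol, 30073 matched a RefSeq gene through their Entrez identifier. The adjusted p threshold followed the study's methods.

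Array values are given for genes called on any kept probe and for the 3 largest rises and 3 largest falls in each comparison; others are named for their role or level, and those under an unadjusted p of 0.05 with miR-638 were singled out after their values were seen. The members and lists were chosen with earlier results of these data known. The replicate numbers showed no sign of pairing the arrays over all kept probes: replicate differences of 2 groups correlated at -0.069 to -0.054. Alternatives changed the background model, offset, scaling, table, probe filter, probe choice, arrays fitted, moderation and threshold, added the replicate block, and left out each array.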

Additional observations from a re-analysis of the deposited data

How the results depend on the processing

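No autophagy gene was called for miR-638 versus mock under any alternative run, and no gene named by the rule changed direction under any of them. The counts of calls, 4 for antagomiR-638 versus mock and 4 for miR-638 versus antagomiR-638, moved with the fit. With intensities floored at 16 and no normexp, they became 1 (DRAM1) and 2 (DRAM1 and OPTN), and the F test over the 3 groups called 1. The second table, floored in the same way, gave the same counts. It differed from the first by at most 0.174 units on the same array, so this was nearly the same fit. The log2 differences were then no smaller: 0.93 for WIPI1, 0.97 for OPTN and 1.07 for BNIP3L in antagomiR-638 versus mock, and -0.74 for WIPI2 in miR-638 versus antagomiR-638. The share of all genes called then fell to 0.165% for miR-638 versus mock, 1.93% for antagomiR-638 versus mock and 4.43% for miR-638 versus antagomiR-638, against 3.06%, 10.6% and 15.8% as reported. With an offset of 50, 8 autophagy genes were called for miR-638 versus antagomiR-638, where 21% of all genes were called, and 7 by the F test. For miR-638 versus mock 6.35% of all genes were called with that offset. No share of all genes was counted for the F test under the alternatives. Without limma's moderation every count was 0, with 3, 12 and 10 autophagy genes at an unadjusted p under 0.05 in the order above. The share of all genes at that unadjusted p was not counted in this fit. At an adjusted p under 0.05, 11 autophagy genes were called for antagomiR-638 versus mock, 9 for miR-638 versus antagomiR-638 and 9 by the F test, and 11.1%, 23.6% and 29.3% of all genes in the order above. Without a probe filter the shares of all genes were 0.644%, 3.82% and 6.32%. For miR-638 versus mock the share was 5.91% with detection at 0.01 on all arrays and 1.28% with only the compared groups. The causes were not tested.

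Leaving out each array gave 0 autophagy genes for miR-638 versus mock, 1 to 4 for antagomiR-638 versus mock, 1 to 3 for miR-638 versus antagomiR-638 and 1 to 4 for the F test, and 0.228% to 1.19%, 2.25% to 8.51% and 4.37% to 13.7% of all genes. With the replicate number as a block, 0, 4 and 3 autophagy genes were called, beside 1.69%, 8.28% and 12.7% of all genes, and WIPI2 was lost (limma adjusted p = 0.0122). The log2 difference of WIPI2 was -0.60 in both fits, with a standard error of 0.13 in the block fit and 0.12 in the main fit. The labels do not say whether arrays of the same number shared a culture or day, and the cause of the loss was not tested. Dim genes such as ATG13, AMBRA1 and STX17 lie close to the negative controls, where the offset draws fold changes toward 0.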
